A study of Mus musculus with 6 samples.

Results

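Prox1, Foxc1, Foxc2, Flt4, Vegfc and Pdpn were followed in mouse aortic valves from postnatal maturation to adult life. They are 6 of the 46983 genes in the deposited table, taken by their symbols, with no threshold on their values. Aortic valves of wild-type C57BL/6J mice were collected at postnatal day 2 (PND2) and at 4 months, with no transgene or treatment named for either age. RNA-seq was run on 3 libraries per age, and each library pooled the valves of 5 to 6 mice, so the spread given is between pools and not between animals. Levels are reads scaled by exonic length and by the library total (RPKM), so they can be compared between genes as well as between libraries.

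These genes are best known from lymphatic vessels. Prox1 is the homeobox transcription factor that sets lymphatic endothelial identity. The ligand VEGF-C, encoded by Vegfc, acts through the receptor tyrosine kinase VEGFR-3, encoded by Flt4. Podoplanin, encoded by Pdpn, is a surface glycoprotein of lymphatic endothelium that binds CLEC-2 on platelets and is also made by mesothelial cells and many fibroblasts. Foxc1 and Foxc2 are forkhead transcription factors, and Foxc2 works with Prox1 when lymphatic and venous valves form. Endothelial cells of heart valves also use part of this set, and cardiomyocytes express Prox1.

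Library totals ran from 23810507 to 38994657, and each library detected 27813 to 29017 genes. Marker RNA levels of several cell types differed between the ages. Summed over lists of markers, endothelial genes held 713 to 960 RPKM at PND2 and 452 to 465 RPKM at 4 months, and 9 of the 12 passed the test as lower. Cardiomyocyte genes held 12199 to 12909 RPKM at PND2 and 5747 to 8518 RPKM at 4 months, with 5 of 10 lower. Smooth muscle, macrophage and adipocyte genes moved the other way, with 6 of 7, 7 of 8 and 7 of 8 higher at 4 months. Of all genes tested, 21.1% were lower and 14.7% higher. Smooth muscle genes summed to 7429 to 8590 RPKM at PND2 and 16820 to 27858 RPKM at 4 months, and macrophage genes to 200 to 252 and 465 to 588 RPKM. Interstitial genes summed to 5968 to 6410 and 7660 to 9677 RPKM, yet 2 of 8 were higher and 3 lower. Their median log2 fold change was -0.15. Mesothelial genes summed to 191 to 293 and 141 to 204 RPKM (1 of 8 lower), and platelet genes to 75.3 to 78.5 and 66.9 to 87.7 RPKM. No marker of these lists was at 0 in every library, but the adipocyte genes Cidec, Lep and Retn were at 0 in all 3 PND2 libraries. The adipocyte sum was 63.9 to 147 RPKM at PND2, and 366, 1493 and 364 RPKM in adult replicates 1 to 3. In such bulk tissue, fewer cells of a type and less RNA per cell cannot be told apart.

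All 6 genes were well measured at both ages. Between 726 and 9559 reads stood behind each value, and every value lay far above the filter on low values, so 6 of 6 were tested. Of these, 2 fell with age, Prox1 and Flt4, both by more than 2-fold, and 4 did not pass the test (limma, Benjamini-Hochberg adjusted p over the 25903 genes tested). No gene of the 6 rose, neither at an unadjusted p under 0.05 (0 genes) nor with voom (0 genes), although with median scaling 1 gene, Foxc1, was called higher. The share called was 33.3%, beside 35.8% of all genes tested. Lower genes made up 21.1% of all genes tested, and those lower by more than 2-fold 8.47%. The median log2 fold change was -0.31 over the 6 genes and -0.14 over all genes tested.

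**Figure D1:**
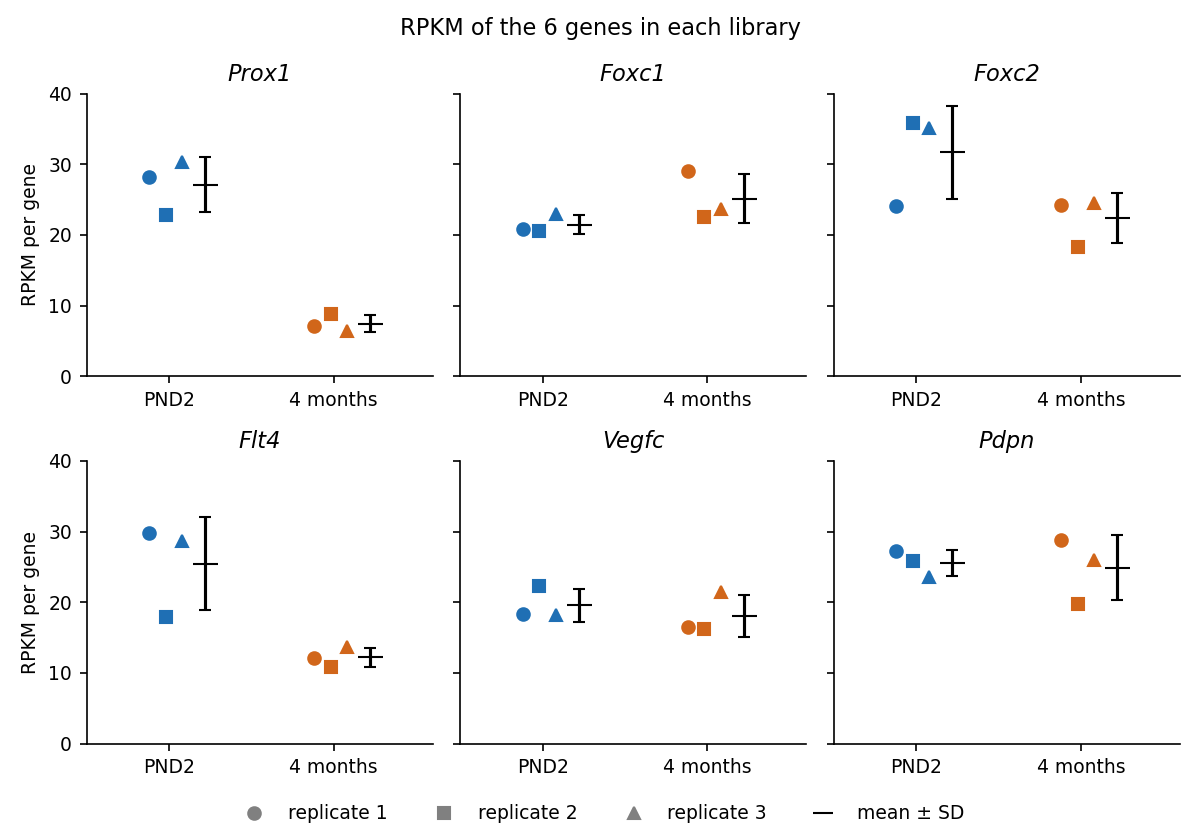
RPKM per gene (vertical axis, from 0) of the 6 genes in the 3 PND2 libraries (blue) and the 3 libraries of 4 months (orange), with symbols for replicates 1 to 3 and the black bar for mean ± SD. Prox1 and Flt4 have separate ages, with Prox1 at 22.7 to 30.3 against 6.40 to 8.80, and the other 4 genes overlap.

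Upstream sequence is shown for 3 members that differed in their response or base composition: Prox1, the gene that fell furthest, Foxc1, whose estimate was the highest, and Pdpn, whose estimate lay nearest to 0. Each is the 250 bases before a RefSeq transcript start on GRCm38.p6 (the build also called mm10), written 5′ to 3′ on the gene's strand. The windows are chr1:190170828-190171077 (minus strand), chr13:31806396-31806645 (plus strand) and chr4:143299565-143299814 (minus strand), and none overlaps an exon of the deposited table. Capitals mark a GC box (GGGCGG or CCGCCC) or a forkhead core (TGTTTAC or GTAAACA), each searched on both strands.
Prox1: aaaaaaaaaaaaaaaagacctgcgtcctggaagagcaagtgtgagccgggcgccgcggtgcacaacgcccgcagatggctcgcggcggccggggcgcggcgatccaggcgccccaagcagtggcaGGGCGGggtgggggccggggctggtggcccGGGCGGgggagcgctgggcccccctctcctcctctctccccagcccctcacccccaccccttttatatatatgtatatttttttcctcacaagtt
Foxc1: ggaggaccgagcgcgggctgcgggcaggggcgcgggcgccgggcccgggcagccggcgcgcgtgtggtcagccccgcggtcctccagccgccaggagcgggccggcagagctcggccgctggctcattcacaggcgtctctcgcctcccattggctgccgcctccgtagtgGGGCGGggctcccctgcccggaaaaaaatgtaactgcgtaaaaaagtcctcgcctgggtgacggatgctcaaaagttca
Pdpn: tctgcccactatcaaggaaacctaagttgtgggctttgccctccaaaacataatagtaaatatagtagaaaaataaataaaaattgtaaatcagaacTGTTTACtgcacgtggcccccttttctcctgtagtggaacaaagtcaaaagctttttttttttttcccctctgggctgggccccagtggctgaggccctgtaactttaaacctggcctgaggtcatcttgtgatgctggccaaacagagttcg

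The Prox1 window shown is 64.8% G or C and holds 2 GC boxes. A window before another annotated Prox1 start, not shown because it overlaps an exon of Gm28172, is 56.0% G or C and holds 1. Foxc1's window is 70.8% G or C and holds 1. Pdpn's window, at 43.2%, lies below the median of all windows, 52.4%. It holds no GC box and 1 forkhead core, 153 bases before the start. Over 32851 such windows, 32.7% hold a GC box and 3.17% a forkhead core. These are letter matches only. Windows were at hand for 5 of the 6 genes (all but Foxc2). Vegfc's window, not shown, is 71.6% G or C and holds 2 GC boxes. That of Flt4, not shown and overlapping exons of Flt4, is 68.4% G or C and holds 3. Whether these letters bear on the change with age was not tested.

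Prox1, the transcription factor at the head of this set, lies on chromosome 1 from 190118035 to 190170714 on the minus strand (ENSMUSG00000010175). Its RPKM was 28.1, 22.7 and 30.3 in PND2 replicates 1 to 3 and 7.07, 8.80 and 6.40 in those of 4 months. All PND2 libraries were above all adult ones. Non-overlapping ages were found for 2 of the 6 genes, beside 50.0% of all genes tested. The mean fell from 27.1 ± 3.90 to 7.42 ± 1.24 RPKM (SD, n = 3), a ratio of means of 3.65. On the log2(RPKM + 0.1) scale the change was -1.86 (standard error, SE, 0.16, 95% interval -2.24 to -1.47, limma adjusted p = 0.000305). The gene moved from the 78.9th to the 53.6th percentile of the levels of all genes tested.

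The fall of Prox1 was seen along the whole transcript. Of its 9 annotated exons, 8 had an RPKM of at least 1 in 3 libraries, and in all 8 every 4 month value lay under every PND2 value. Their ratios of mean RPKM, PND2 over 4 months, ran from 3.49 to 5.79. Among all exons past the same filter, 42.8% did not overlap between the ages and 26.9% were lower without overlap. The remaining exon was nearly silent, with at most 12 reads in a library. Exons 1 and 2 from the 5′ end overlap each other, and exons 7 and 8 lie within exon 9. The 8 exons are therefore not separate measurements.

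An antisense gene, Prox1os, starts within Prox1 and runs away from it on the plus strand, from 190170296 to 190217276 of chromosome 1 (ENSMUSG00000079045). It had 4.83, 3.84 and 6.07 RPKM at PND2 and 0.905, 1.17 and 0.793 RPKM at 4 months, with the ages apart. Its log2 fold change was -2.24 (SE 0.25, limma adjusted p = 0.000784). Its first exon overlaps Prox1 exons 1 and 2. Since the use of strand in counting is not stated, reads there cannot be assigned to either gene. The second exon overlaps no other gene's exon and lies 45868 bases beyond the end of Prox1. There the values were 2.88, 1.65 and 2.16 RPKM at PND2 (78, 35 and 44 reads) and 0.231, 0.242 and 0.199 RPKM at 4 months (6, 4 and 4 reads), so the lower adult level was also present where Prox1 has no exon. Prox1os was picked for its position, and its exons were given no test.

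**Figure D2:**
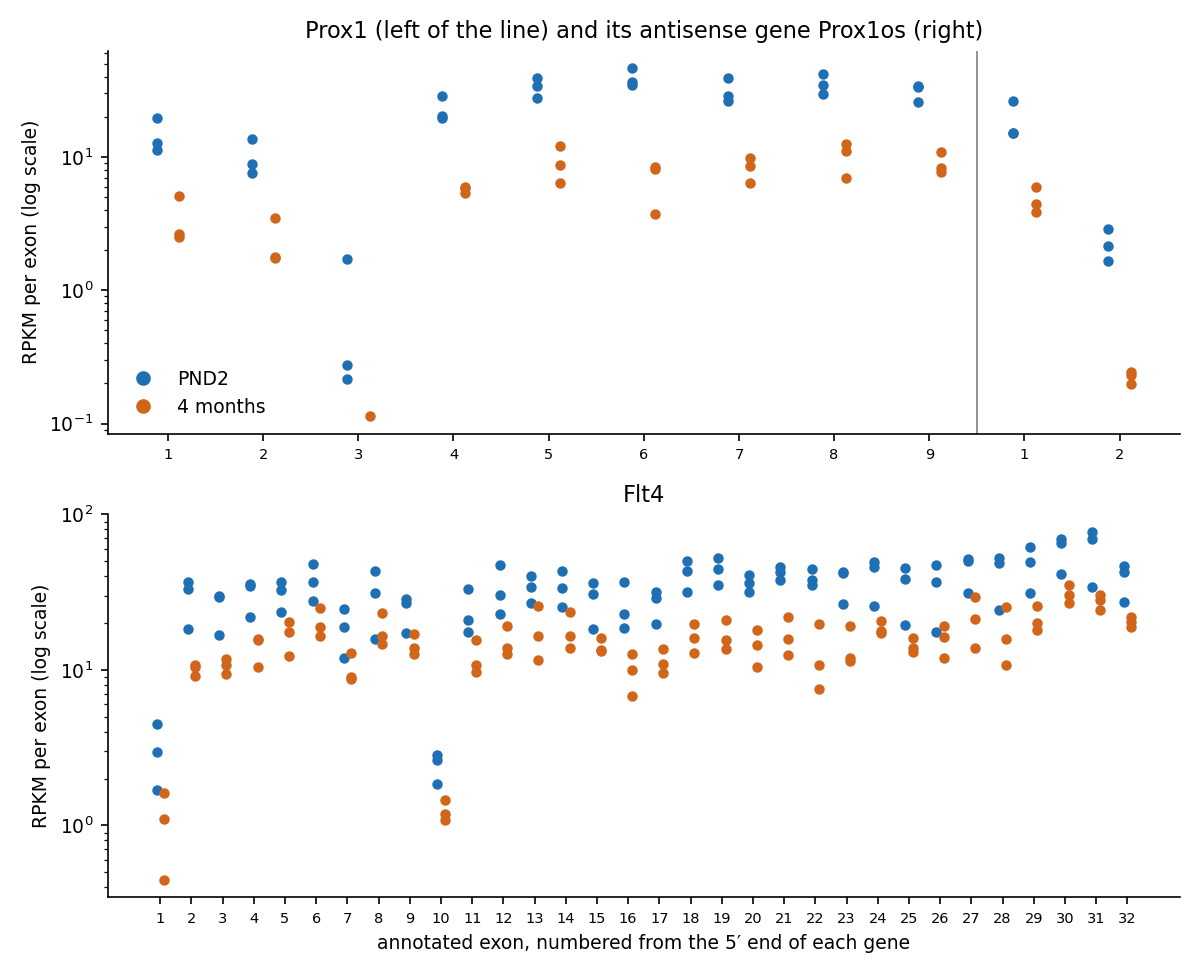
RPKM per exon on a log axis for every annotated exon of Prox1 and Prox1os (upper panel) and Flt4 (lower panel), numbered from each gene's 5′ end, with 1 point per library for PND2 (blue) and 4 months (orange) and values of 0 not drawn. The ages are apart in 8 of 8 measurable Prox1 exons, in both Prox1os exons and in 28 of 32 Flt4 exons, beside 42.8% of all exons past the filter. Some annotated exons overlap each other.

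Because endothelial and cardiomyocyte markers were also lower at 4 months, Prox1 was set against their sums. It stood at 3.23, 3.19 and 3.16% of the summed endothelial RPKM in the PND2 libraries and at 1.52, 1.93 and 1.42% in the adult ones. This ratio was lower in all 3 adult libraries, with a log2 difference of -0.99. Against the cardiomyocyte sum it stood at 0.230, 0.187 and 0.235% at PND2 and at 0.120, 0.103 and 0.111% at 4 months, a log2 difference of -0.95. Both gave p = 0.1 in a 2-sided exact permutation test, the smallest that 3 libraries against 3 can give. These sums weigh each marker by its level, and single markers changed unequally. Beside -1.86 for Prox1, the log2 fold change of endothelial markers ran from -1.65 (Cldn5) to -0.27 (Esam). Pecam1 and Eng, with high levels, were at -0.49 and -0.64. Among cardiomyocyte markers it ran from -2.05 (Myl2) to -0.01 (Myl7), with Myh6 at -0.64.

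Flt4 lies on chromosome 11 from 49609263 to 49652739 on the plus strand (ENSMUSG00000020357). Its RPKM was 29.8, 17.9 and 28.7 at PND2 and 12.1, 10.9 and 13.6 at 4 months. The receptor was lower in all adult libraries, although PND2 replicate 2 stood well under the other PND2 libraries. The mean fell from 25.4 ± 6.58 to 12.2 ± 1.36 RPKM (SD, n = 3), a ratio of means of 2.08. Its log2 fold change was -1.02 (SE 0.21, 95% interval -1.51 to -0.54, limma adjusted p = 0.00842). With the study's own kind of test, an unequal-variance test per gene, the adjusted p was 0.113, the highest of a range from 0.00192 over 17 alternatives.

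Along Flt4, 28 of 32 distinct annotated exons were lower at 4 months without overlap, beside 26.9% of all exons past the filter. Ratios of means ran from 1.66 to 3.09 over the 32. Some of these exons lie within others, so they are not all separate measurements. The share of Flt4 in the endothelial sum was 3.42, 2.51 and 2.99% at PND2 and 2.60, 2.39 and 3.01% at 4 months, with overlap. The log2 difference was -0.15 (exact permutation p = 0.5, 2-sided). PND2 replicate 2, lowest in Flt4 among the PND2 libraries, also had the lowest endothelial sum of that age (713 RPKM) and the lowest sum of 7 lymphatic endothelial markers (470 RPKM, where the other PND2 libraries reached up to 930 RPKM). That marker list contains Prox1, Flt4 and Pdpn themselves. Most of its sum came from Ccl21a, whose reads are uncertain, at 546, 336 and 744 RPKM in PND2 replicates 1 to 3. What the makeup of the tissue adds to the change of Flt4 or Prox1 was not tested.

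**Figure D3:**
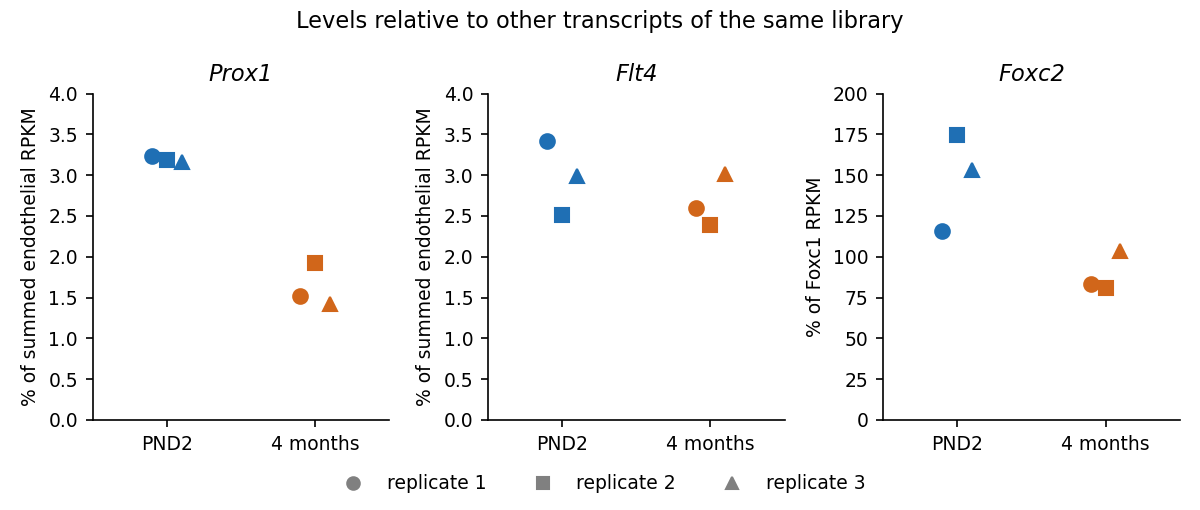
Prox1 and Flt4 as a percentage of the summed RPKM of 12 endothelial markers, and Foxc2 as a percentage of Foxc1, in each library (symbols for replicates 1 to 3, blue for PND2 and orange for 4 months). Prox1 is at 3.16 to 3.23% against 1.42 to 1.93%, the Flt4 ages overlap, and Foxc2 is above Foxc1 in all 3 PND2 libraries.

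The ligand of this receptor did not pass the test. Vegfc, on chromosome 8 from 54077532 to 54186454 on the plus strand (ENSMUSG00000031520), had 18.3, 22.3 and 18.2 RPKM at PND2 and 16.6, 16.2 and 21.5 RPKM at 4 months. The ages overlapped. Means were 19.6 ± 2.34 and 18.1 ± 2.94 RPKM (SD, n = 3), with a log2 fold change of -0.12 (SE 0.15, limma adjusted p = 0.562). The 95% interval, -0.47 to 0.22, leaves room for a change from -27.7% to 16.8%. Over its 7 exons the ratio of means, PND2 over 4 months, ran from 0.786 to 1.47, and 1 exon was lower at 4 months without overlap.

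Foxc1 and Foxc2 are single-exon genes that came out on either side of 0. Foxc1 lies on chromosome 13 from 31806691 to 31810643 on the plus strand (ENSMUSG00000050295), and had 20.8, 20.6 and 22.9 RPKM at PND2 and 29.1, 22.6 and 23.7 RPKM at 4 months. Only adult replicates 1 and 3 lay above the highest PND2 value. Its means were 21.4 ± 1.30 and 25.1 ± 3.48 RPKM (SD, n = 3). The log2 fold change was 0.22 (SE 0.12, 95% interval -0.07 to 0.51, limma adjusted p = 0.209). Scaling each library by its median ratio to the mean library, which moved the median of all genes from -0.14 to -0.02, gave Foxc1 0.34 and an adjusted p of 0.0394, the lowest of a range up to 0.505 over 17 alternatives.

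Foxc2 lies on chromosome 8 from 121116171 to 121118895 on the plus strand (ENSMUSG00000046714), within an intron of the annotated gene Gm20388 and without sharing an exon with it. It had 24.1, 35.9 and 35.1 RPKM at PND2 and 24.2, 18.3 and 24.6 RPKM at 4 months. PND2 replicate 1 lay among the adult values, and the other PND2 libraries lay above them. Means were 31.7 ± 6.58 and 22.3 ± 3.51 RPKM (SD, n = 3). The log2 fold change was -0.49 (SE 0.19, 95% interval -0.94 to -0.05, limma adjusted p = 0.0823). When PND2 replicate 1 was left out it was -0.68 (adjusted p = 0.0188, the lowest of a range up to 0.221 over 17 alternatives), so that this library decides the call.

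The 2 genes of the pair were also compared within each library. Foxc2 stood at 116, 174 and 153% of Foxc1 at PND2 and at 83.2, 81.0 and 104% at 4 months. All PND2 libraries had more Foxc2 than Foxc1, while among the adult libraries only replicate 3 did. The log2 difference was -0.71 and did not overlap between the ages (exact permutation p = 0.1, the smallest possible here).

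Pdpn lies on chromosome 4 from 143267431 to 143299564 on the minus strand (ENSMUSG00000028583). Podoplanin RNA stood at 27.2, 25.9 and 23.6 RPKM at PND2 and at 28.8, 19.8 and 26.0 RPKM at 4 months. Adult replicates 1 and 2 were the highest and the lowest of all 6 libraries. Means were 25.6 ± 1.81 and 24.9 ± 4.59 RPKM (SD, n = 3). The log2 fold change was -0.06 (SE 0.15, limma adjusted p = 0.807), and the 95% interval, -0.41 to 0.30, spans a change from -24.7% to 22.9%. None of its 8 exons separated the ages, and their ratios of means ran from 0.963 to 1.35.

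**Figure D4:**
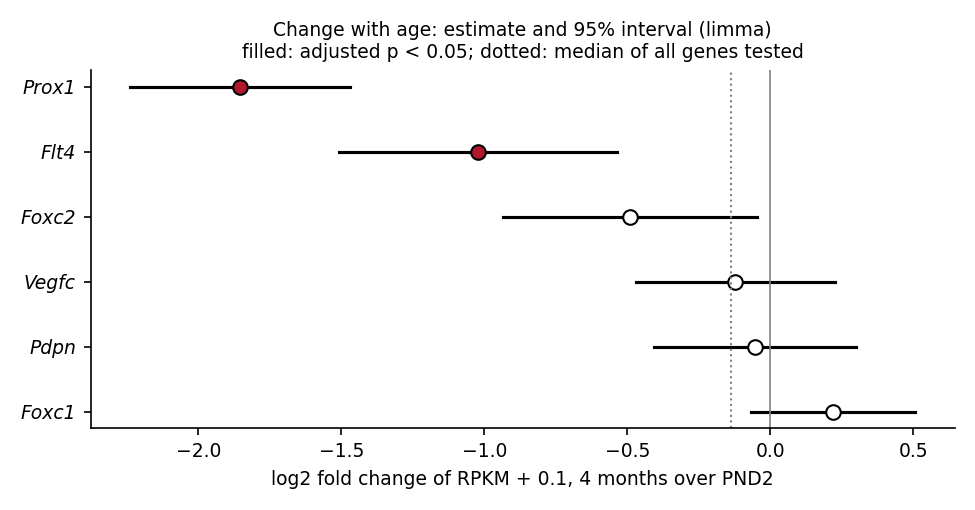
Log2 fold change of RPKM + 0.1, 4 months over PND2, for the 6 genes with 95% intervals from limma. Filled points have an adjusted p under 0.05, and the dotted line is the median of all genes tested (-0.14). The intervals of Prox1 (-2.24 to -1.47) and Flt4 (-1.51 to -0.54) lie below that line.

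The order of the levels differed between the ages. At PND2 it ran, by mean RPKM, from Foxc2 (31.7) through Prox1, Pdpn, Flt4 and Foxc1 to Vegfc (19.6), and every neighbouring pair in this order overlapped. At 4 months it ran from Foxc1 (25.1) through Pdpn, Foxc2, Vegfc and Flt4 to Prox1 (7.42). The first 4 of these overlapped with their neighbours. Flt4 lay below Vegfc in every adult library, and Prox1 below Flt4.

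Of 16 other ligands, receptors, co-receptors and VEGF-C processing genes, 9 fell, 3 rose and 4 did not pass the test, so 75.0% were called beside 35.8% of all genes tested, with a median log2 fold change of -0.44 beside -0.14. This list and those below were not matched by level to all genes tested, which go down to 0.1 RPKM in 3 libraries. Without PND2 replicate 3, 5 genes fell, and with the unequal-variance test 2 fell and 2 rose. The 3 that rose were Ccbe1 and Svep1, extracellular proteins required for lymphatic growth, and Figf (also Vegfd), the other ligand of VEGFR-3. Figf rose from 7.64 ± 1.04 to 18.7 ± 0.539 RPKM (log2 fold change 1.29, limma adjusted p = 0.000462). Ccbe1 rose from 0.550 ± 0.0517 to 3.94 ± 0.398 RPKM (2.63, adjusted p = 0.00023), and Svep1 from 2.81 ± 0.545 to 6.24 ± 0.385 RPKM (1.14, adjusted p = 0.00349). At 4 months the means of Vegfc and Figf were 18.1 and 18.7 RPKM.

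Among the genes that fell, Adamts14 and Adamts3 encode proteases that cleave pro-VEGF-C. Adamts14 went from 10.2 ± 2.95 to 2.83 ± 1.21 RPKM (log2 fold change -1.85, limma adjusted p = 0.00457). Adamts3 went from 1.61 ± 0.130 to 0.807 ± 0.110 RPKM (-0.92, adjusted p = 0.0221), and its adjusted p was above the threshold, at up to 0.0693, without any 1 of 4 libraries (each PND2 library and adult replicate 3). Nrp2, the co-receptor of VEGFR-3, fell from 14.8 ± 4.14 to 6.86 ± 1.14 RPKM (-1.07, adjusted p = 0.0126). Kdr, the VEGFR-2 gene, named here after its values were seen, fell from 31.3 ± 4.94 to 16.8 ± 3.54 RPKM (-0.91, adjusted p = 0.00784).

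Among 14 genes of lymphatic endothelial identity other than the 6, 7 fell, 1 rose and 6 did not pass the test. The share called was 57.1% beside 35.8% of all genes tested, and the median log2 fold change -0.85 beside -0.14. Without PND2 replicate 3 or adult replicate 2, 4 fell, and with the unequal-variance test 2 did. The 12 general endothelial markers, of which 9 fell, had a median of -0.72, and the part of tissue makeup in this list and in that of valve formation was not tested. Clca3a1, a surface protein of lymphatic endothelium, fell from 73.4 ± 6.93 to 9.89 ± 1.36 RPKM (log2 fold change -2.88, limma adjusted p = 3e-05). Reln, the secreted glycoprotein reelin, fell from 7.06 ± 2.41 to 1.03 ± 0.0865 RPKM (-2.60, adjusted p = 0.000751). Sox18, a transcription factor that switches on Prox1 in the embryo, fell from 43.6 ± 10.7 to 15.1 ± 1.57 RPKM (-1.51, adjusted p = 0.00104). Nr2f2, the venous transcription factor COUP-TFII and a partner of Prox1, rose from 8.60 ± 1.44 to 13.5 ± 2.39 RPKM (0.64, adjusted p = 0.0277). This call was lost without any 1 of 4 libraries, PND2 replicate 1 or 2 or adult replicate 1 or 3, where the adjusted p reached 0.0814.

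Lyve1, the hyaluronan receptor that marks lymphatic endothelium and some macrophages, was named after its values were seen. It had 119, 39.3 and 55.0 RPKM at PND2 and 35.3, 32.4 and 33.4 RPKM at 4 months. The ages did not overlap, yet PND2 replicate 1 stood far above the rest and the limma adjusted p was 0.0866. Ccl21a, a chemokine of lymphatic endothelium named in the same way, had 546, 336 and 744 RPKM at PND2 and 198, 219 and 307 RPKM at 4 months, and fell (-1.12, adjusted p = 0.0243), a call lost without PND2 replicate 1 or 3 or adult replicate 1 or 2, with an adjusted p of up to 0.0708. Near-identical copies of Ccl21a exist, so its reads are uncertain.

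Lymphatic and venous valve formation is the process in which Prox1 and Foxc2 are best studied together. Of 27 other genes of it, 17 fell, 4 rose and 6 did not pass the test (77.8% called beside 35.8% of all genes tested, median log2 fold change -0.94). Cldn11, a tight junction protein, fell from 22.4 ± 3.28 to 4.50 ± 0.262 RPKM (-2.28, limma adjusted p = 8.1e-05). Gja4, the gap junction protein connexin 37, fell from 85.7 ± 22.6 to 19.1 ± 1.10 RPKM (-2.13, adjusted p = 0.000252). Celsr1, a planar polarity cadherin, fell from 5.39 ± 0.932 to 1.41 ± 0.0628 RPKM (-1.85, adjusted p = 0.000608).

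The 4 that rose were Itga9, Klf2, Klf4 and Pkd1. Itga9, the integrin subunit of valve leaflets that binds fibronectin, rose from 73.9 ± 11.2 to 117 ± 11.4 RPKM (0.67, limma adjusted p = 0.00881). Klf2 and Klf4, transcription factors induced by fluid shear, rose from 63.0 ± 5.92 to 107 ± 21.4 RPKM (0.74, adjusted p = 0.00879) and from 31.4 ± 6.41 to 60.4 ± 9.18 RPKM (0.95, adjusted p = 0.00528). Pkd1, the gene of polycystin-1 and also named after its values were seen, had a log2 fold change of 0.55 (adjusted p = 0.0152), and its call was lost without PND2 replicate 3 or adult replicate 3, at up to 0.0588. With the study's kind of test, 9 genes of this list fell and none of these 4 rises passed.

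**Figure D5:**
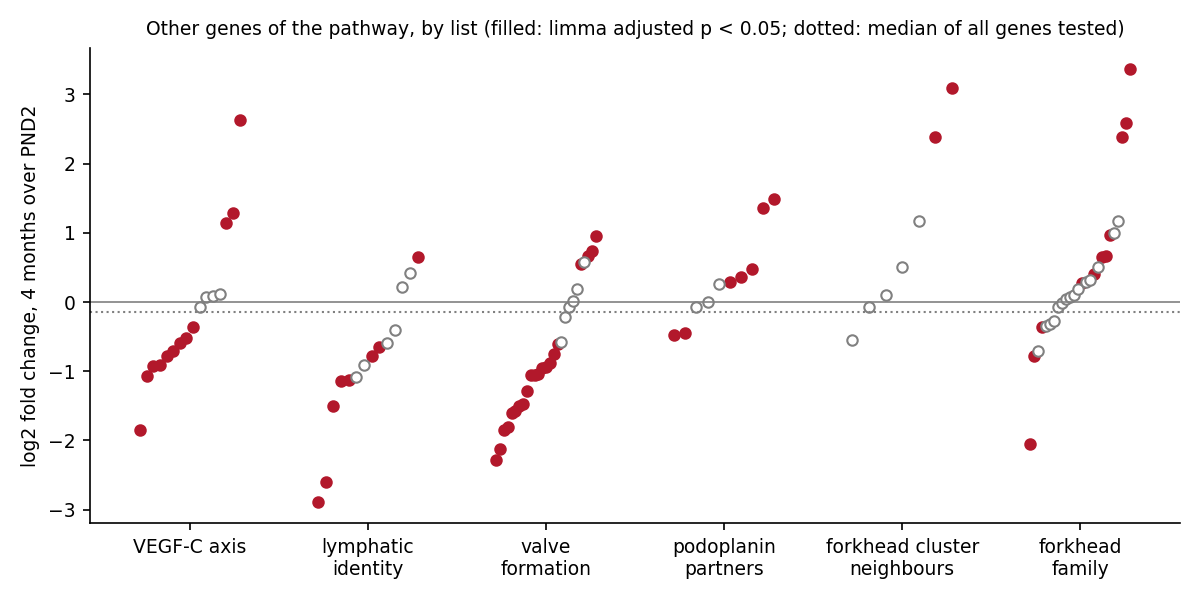
Log2 fold change, 4 months over PND2, of every tested gene in the 6 lists, sorted within each list. Filled points have a limma adjusted p under 0.05, and the dotted line is the median of all genes tested (-0.14). The medians of the lists of lymphatic identity and of valve formation, -0.85 and -0.94, lie below that line.

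Binding partners of podoplanin and the genes that act below it formed a list of 10. Of these, 5 rose, 2 fell and 3 did not pass the test (70.0% called beside 35.8% of all genes tested, of which 14.7% were higher, median log2 fold change 0.27). With the unequal-variance test 3 rose and neither fall passed. Cd9, a tetraspanin that binds podoplanin, rose from 123 ± 6.27 to 349 ± 57.2 RPKM (1.49, limma adjusted p = 0.000351). Lgals8, the lectin galectin-8, rose from 26.3 ± 0.370 to 36.8 ± 4.45 RPKM (0.48, adjusted p = 0.0129). The membrane linkers Ezr (-0.48, adjusted p = 0.0266) and Rdx (-0.46, adjusted p = 0.0145) fell. Both calls were lost without PND2 replicate 3 or adult replicate 3, and that of Ezr also without replicate 2 of either age, with adjusted p of up to 0.0917. Without PND2 replicate 3 or either of adult replicates 1, 2 and 3, 3 genes of the list rose, and the number that fell was 0 or 1 without replicate 2 or 3 of either age.

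Foxc1 and Foxc2 each lie in a small cluster of forkhead genes. Of 7 neighbours in the clusters, 2 rose and 5 did not pass the test, and both that rose lie in the cluster of Foxc2 (28.6% called, under the 35.8% of all genes tested, median log2 fold change 0.51). Foxf1, a forkhead factor of mesenchyme, rose from 1.03 ± 0.528 to 5.67 ± 2.39 RPKM (2.39, limma adjusted p = 0.00645). The noncoding RNA Fendrr had 1, 16 and 14 reads at PND2 and 275, 82 and 144 reads at 4 months, and rose from 0.103 ± 0.0830 to 1.58 ± 0.595 RPKM (3.09, adjusted p = 0.00246). The change of such low genes is understated on the log2(RPKM + 0.1) scale.

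Across the forkhead family, 42 genes other than Foxc1 and Foxc2 were in the table and 26 passed the filter. Of these 26, 8 rose, 3 fell and 15 did not pass the test (42.3% called, near the 35.8% of all genes tested, median log2 fold change 0.23). With the unequal-variance test 3 rose and none of the 3 falls passed. Foxd1, a factor of stromal precursors, rose from 0.231 ± 0.262 to 2.76 ± 0.970 RPKM (3.36, limma adjusted p = 0.00445), and Foxp2 from 3.46 ± 0.284 to 6.87 ± 0.272 RPKM (0.97, adjusted p = 0.0025). Foxm1, which drives mitotic genes, fell from 4.93 ± 1.20 to 1.09 ± 0.0707 RPKM (-2.05, adjusted p = 0.000873). Foxs1 (-0.78, adjusted p = 0.0357) and Foxk2 (-0.37, adjusted p = 0.048) also fell. Each of these last calls was lost in 5 of the 6 fits that left out 1 library, all but that without adult replicate 1 for Foxs1 and that without PND2 replicate 1 for Foxk2, with adjusted p of up to 0.113 and 0.16. Without replicate 2 or 3 of either age, 1 gene of the family fell.

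The genes most like each member were found by Pearson's r of log2(RPKM + 0.1) over the 6 libraries, among 13723 protein-coding candidates. Over so few libraries, which share the age difference, these values describe the libraries and no more. Nearest to Prox1 were Sap30 (r = 0.9995), Timm21 and Ralgps2, and nearest to Flt4 was Icam2 (r = 0.993), an adhesion molecule of endothelium, followed by Trpc2 and Wasf1. Foxc1 was most like Zc3h6, Tpp1 and Rsu1, and Foxc2 most like Mospd3, Git1 and Mrto4. For Pdpn they were Ikbke, Enho and Phkg2, and for Vegfc they were Rfwd2, Xlr4c and Xlr4b.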

How the data were processed

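RNA-seq covered mouse aortic valves at both ages, with 3 libraries each. Reads were trimmed by the authors, mapped to mm10 using TopHat2 2.1.0 and assigned to genes and exons of Ensembl release 83 by easyRNASeq. The deposited values are RPKM. R 3.2.2 is also given in the submitters' processing notes. The authors' floor for low values is not applied in these values. The use of strand is not stated. Multiplying RPKM by exonic length and library total gave whole reads for 100% of gene values above 0 (tolerance 0.01), so depth is known.

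From the deposited values, the 25903 genes that reached 0.1 RPKM in 3 libraries were fitted on the log2(RPKM + 0.1) scale by limma 3.58.1 under R 4.3.3 (eBayes, trend, 2-sided, Benjamini-Hochberg at 0.05). This scale understates changes of low genes. Marker ratios were given exact permutation tests. Exon values (RPKM of at least 1 in 3 libraries for counts) are descriptive. Voom on the recovered reads called 9696 of 25903 genes, and limma 9273. Steps were tested on simulated data. Summaries used pandas 2.3.3 and numpy 2.4.6 in Python 3.11.15, plots used matplotlib 3.10.9, and the R step also loaded data.table (1.17.8).

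Alternatives were pseudocounts of 1 and 0.01, no filter, RPKM of at least 1, no trend, the study's unequal-variance test per gene, median scaling, quantile normalization, a floor of 10 reads, voom, a replicate block, and leaving out each library in turn. The 6 genes and the lists were chosen with earlier results of these data known. Named are the 6 genes, up to 3 called genes with the largest rise and fall in each list (from a mean of 1 RPKM upwards in the age with more), and the 3 genes most like each member. One gene that this rule names among the podoplanin partners is not reported here. Replicate numbers were not taken as pairs.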

Additional observations from a re-analysis of the deposited data

How the results depend on the processing

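Prox1 kept its call under all 17 alternatives, with a log2 fold change of -1.98 to -1.73 (adjusted p 2.97e-05 to 0.0221). Leaving out each library in turn gave -1.26 to -0.89 for Flt4, -0.68 to -0.35 for Foxc2, 0.11 to 0.29 for Foxc1, -0.25 to -0.03 for Vegfc and -0.17 to 0.10 for Pdpn, with 2 to 3 of the 6 genes called lower. In those fits 5 to 8 genes of the VEGF-C axis fell, 4 to 8 of lymphatic identity fell and 0 to 1 rose, 0 to 2 podoplanin partners fell and 3 to 4 rose, and 1 to 2 forkhead genes fell. The unequal-variance test per gene left Flt4 at -1.02 (adjusted p = 0.113) and 1 of the 6 genes called lower. It called 2 genes of the VEGF-C axis lower and 2 higher, 2 of lymphatic identity lower and 0 higher, 9 of valve formation lower and 0 higher, 0 podoplanin partners lower and 3 higher, 1 cluster neighbour higher, and 0 forkhead genes lower and 3 higher. Median scaling gave Foxc1 0.34 (adjusted p = 0.0394), so that 1 of the 6 genes was called higher, and 1 podoplanin partner lower. Without the trend, 0 genes of lymphatic identity rose, 1 podoplanin partner fell and 3 rose, and 1 forkhead gene fell. With a floor of 10 reads, 4 genes of lymphatic identity fell and 0 rose, and 1 podoplanin partner and 1 forkhead gene fell. With the replicate block, 1 podoplanin partner fell and 3 rose, and 1 forkhead gene fell. The block left Prox1 at an adjusted p of 0.004 and Flt4 at 0.00974. Same-numbered libraries of the ages had correlations of their deviations of 0.04, -0.06 and -0.16, and the other pairs ran from -0.18 to 0.23. So few libraries cannot settle whether the numbers pair, and they were not taken as pairs. The cause of the differences between settings was not tested. Depth did not limit the 6 genes (at least 726 reads each).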
